A study of Homo sapiens with 4 samples.

Results

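The genes described here act in 1 step of cell biology, the regulated release of stored cargo. They are 9 genes of the 58522 listed in the deposited table: the vesicle priming genes *UNC13A*, *UNC13B*, *UNC13D* and *CADPS*, the granule cargo genes *CHGA*, *CHGB*, *SCG2* and *SCG5*, and the cargo processing gene *CPE*. The list was drawn up by name after *UNC13A* and *CHGA* were seen to be higher in *CDYL*-sh cells, and the other genes were added as relatives in function. The members were thus chosen by the measured difference of *UNC13A* and *CHGA* between *CDYL*-sh and control cells. Their values in that comparison are given as a description with no test, and no count over the 9 genes supports anything.

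All 4 libraries are RNA-seq of Ishikawa cells, a human endometrial adenocarcinoma line that is widely used as a model of the endometrial epithelium. The *CDYL*-sh group (2 libraries) received a short hairpin RNA against *CDYL*, which encodes a chromodomain protein of repressive chromatin, and the control group (2 libraries) received a negative control hairpin. Per the study's methods both hairpins were delivered by viral transduction with polybrene and followed by puromycin selection, so control cells share the vector, the polybrene and the drug. A hairpin lowers a transcript without removing it, and every library comes from the same established line. The sources used here do not say whether the libraries of a group are separate cultures, or whether both *CDYL*-sh libraries carry the same hairpin. Their titles end in sh1 and sh2, which are also names of hairpins in the study's supplement, so replicate number and hairpin cannot be told apart in this group. The p-values below thus measure only the spread between these samples, which may be technical.

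Neuroendocrine cells and neurons store peptides in dense-core granules, where granins such as chromogranin A condense the cargo and carboxypeptidase E trims the prohormones. Before a granule or synaptic vesicle can fuse it must be primed, a step in which UNC13 proteins open syntaxin so that the SNARE complex can assemble, and in which CADPS acts on dense-core granules. Many of these genes are kept silent outside the nervous system by REST, a repressor that binds a long DNA element called RE1, and CDYL has been described as one of the partners of REST.

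Total expected counts were 27451007 and 22341852 in the *CDYL*-sh libraries, against 27688447 and 26981051 in the control libraries. *CDYL* itself checked the labels. In CPM, which are counts scaled to library size, it had 11.4 and 9.7 in *CDYL*-sh cells and 50.4 and 53 in control cells, so that the *CDYL*-sh mean was 20.3% of the control mean (log2 fold change -2.29, SE 0.13, edgeR quasi-likelihood test, adjusted p = 4.26e-09). Epithelial keratins were abundant in every library (*KRT8* at 1162 and 1276 CPM in *CDYL*-sh cells, 1397 and 1590 CPM in control cells). Of the 9 epithelial markers tested, *KRT19* (log2 fold change 0.70), *CLDN4* (0.52) and *KRT7* (0.53) rose and *KRT18* fell (-0.34), whereas *PGR* was at 0 in all libraries and *ESR1* had at most 6 counts. The 15 neuroendocrine and neuronal marker genes summed to 148 and 158 CPM in *CDYL*-sh cells, against 137 and 151 CPM in control cells. *UCHL1* was the most abundant of them per length, and the defining factor *INSM1* and the neuronal *ELAVL4* had 0 counts in all libraries. Of 7 marker genes tested, 1 passed the test (*SNAP25*, below), beside 25.7% of all genes tested. Stromal markers summed to 18.4 and 16.5 CPM in *CDYL*-sh cells and 25.4 and 27.5 CPM in control cells. Blood and endothelial markers summed to 29.1 and 27.2 CPM in *CDYL*-sh cells and 12 and 16.6 CPM in control cells, with *PECAM1* and *CD68* higher, *CD3E* and *HBB* at 0 and *PTPRC* at no more than 1 count. The part of these markers in the results below was not tested, and in bulk RNA more cells of a kind and more RNA per cell cannot be told apart.

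Of the 9 genes, 6 passed the filter on low counts. *UNC13A* and *CHGA* are among them and chose the list, so no count of calls over the 6 is given. Of the others, *SCG2* passed the test as higher in *CDYL*-sh cells, and *UNC13B*, *UNC13D* and *CPE* did not pass it. Over all 16158 genes tested, 25.7% passed it (13.6% higher and 12.1% lower). The contrast chose the list, so nothing is read from setting the members beside that share. None of *SCG2*, *UNC13B*, *UNC13D* and *CPE* was lower at an unadjusted p under 0.05 by edgeR. DESeq2 and limma-voom called none of them lower either. The median log2 fold change was 0.58 over the 6 genes and 0.01 over all genes tested. The 0.58 includes *UNC13A* and *CHGA*, so nothing is read from it. The genes fell into 3 kinds: *UNC13A* and *CHGA* with large differences, *SCG2* with a smaller one near the threshold, and *UNC13B*, *UNC13D* and *CPE*, which had ample counts and did not pass the test. *CHGB*, *CADPS* and *SCG5* were at or near 0 and could not be tested.

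**Figure D1:**
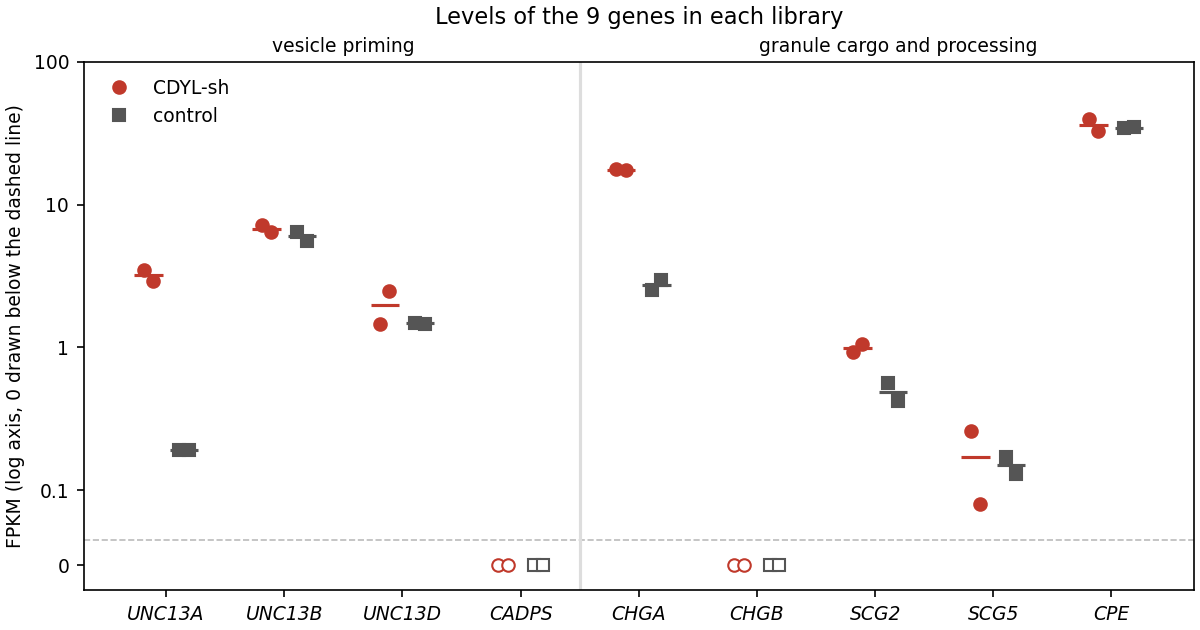
Levels of the 9 genes in each library, as FPKM (fragment counts normalized for gene length and depth) on a log axis, with values of 0 drawn below the dashed line. Red circles are the 2 *CDYL*-sh libraries, grey squares the 2 control libraries and short lines the group means. *UNC13A* stood at 3.48 and 2.91 FPKM in *CDYL*-sh cells against 0.19 FPKM in both control libraries, while *CPE*, the highest gene, lay between 32.8 and 39.5 FPKM in all 4.

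Among the priming genes, *UNC13A* (ENSG00000130477) is the main neuronal form, required for the release of glutamate in the mouse brain. Its locus is on chromosome 19 (17601336 to 17688365, minus strand, GRCh38). It had 899 and 624 counts in *CDYL*-sh cells, against 49 and 38 counts in control cells. This was 32.1 and 28.3 CPM in *CDYL*-sh cells and 1.76 and 1.43 CPM in control cells (mean 30.2 ± 2.7 and 1.6 ± 0.231 CPM, SD, n = 2 each). Both *CDYL*-sh libraries were far above both control libraries and the groups did not overlap. The fold change was 18.9 (95% interval 14.3 to 24.8), or 4.24 on the log2 scale (SE 0.19). The rise of *UNC13A* chose the list, so this interval and SE are descriptive and a coverage of 95% does not hold. Only 8 of the tested genes had a larger log2 fold change, and 0 of those averaged 1 CPM or more. Across the 12 alternatives that kept to counts, its log2 fold change ranged over 4.10 to 4.39.

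The other UNC13 genes are the natural comparison. *UNC13B* (ENSG00000198722, chromosome 9), a form used at some synapses and in several endocrine tissues, had 41.8 and 37.8 CPM in *CDYL*-sh cells and 38.1 and 33.3 CPM in control cells. The groups overlapped, and the log2 fold change was 0.16 (SE 0.12, 95% interval -0.10 to 0.41, edgeR adjusted p = 0.369). *UNC13D* (ENSG00000092929, chromosome 17) primes the lytic granules of cytotoxic lymphocytes and is mutated in a familial immune disorder. It had 4.96 and 6.21 CPM in *CDYL*-sh cells and 5.17 and 5.12 CPM in control cells, with overlapping groups and a log2 fold change of 0.11 (SE 0.21, 95% interval -0.33 to 0.56, edgeR adjusted p = 0.734). Its FPKM in *CDYL*-sh replicate 2 (2.5, against 1.47 in replicate 1) was out of step with its counts (137 and 139). The length implied by count and FPKM was 2453 bases in that library and 3445 to 3482 bases in the others, and the cause was not tested. The remaining family gene, *UNC13C*, had 0 counts in all libraries. In summed FPKM of the 4 family genes, *UNC13A* made up 28.8% and 24.7% in *CDYL*-sh cells, against 2.33% and 2.64% in control cells. The total was 12.1 and 11.8 FPKM in *CDYL*-sh cells and 8.15 and 7.21 FPKM in control cells.

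*CADPS* (ENSG00000163618, chromosome 3), the brain and endocrine form of the granule priming factor, had 0 counts in all 4 libraries. A count of 0 allows up to 3 counts, which is 0.107 and 0.136 CPM in the *CDYL*-sh libraries and 0.108 and 0.113 CPM in the control libraries, for counting error only. Its relative *CADPS2*, named after its values were seen, had 61 and 62 counts in *CDYL*-sh cells and 33 and 15 counts in control cells. *CADPS2* rose by 1.49 on the log2 scale (SE 0.39, edgeR adjusted p = 0.00912), at under 1 FPKM in every library.

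Among the cargo genes, *CHGA* (ENSG00000100604, chromosome 14, plus strand, 92923150 to 92935285) encodes chromogranin A, the blood marker of neuroendocrine tumors and the precursor of vasostatin and pancreastatin. It had 858 and 666 counts in *CDYL*-sh cells, against 120 and 130 counts in control cells. In CPM this was 30.6 and 30.2 in *CDYL*-sh cells and 4.31 and 4.9 in control cells (mean 30.4 ± 0.322 and 4.6 ± 0.418 CPM, SD, n = 2 each). The libraries of each group lay close together and the groups were far apart. The fold change was 6.61 (95% interval 5.27 to 8.28), or 2.72 on the log2 scale (SE 0.16). As for *UNC13A*, the rise chose the list, so this interval and SE are descriptive and a coverage of 95% does not hold. A larger log2 fold change was found for 53 tested genes, 17 of them with a mean of at least 1 CPM.

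*CHGB* (ENSG00000089199, chromosome 20), the sister granin that is often made together with *CHGA*, had 0 counts in all 4 libraries, so the same limit of 3 counts holds. *SCG5* (ENSG00000166922, chromosome 15), the chaperone of the prohormone convertase PCSK2, had 4 and 1 counts in *CDYL*-sh cells and 2 and 2 counts in control cells. These counts are too few for a comparison. *SCG2* (ENSG00000171951, chromosome 2), secretogranin II and the precursor of secretoneurin, was low as well. It had 58 and 54 counts in *CDYL*-sh cells, against 35 and 26 counts in control cells. In CPM this was 2.07 and 2.45 in *CDYL*-sh cells and 1.26 and 0.98 in control cells, and the groups did not overlap. *SCG2* rose 2.01-fold (95% interval 1.2 to 3.35, log2 fold change 1.01, SE 0.35, edgeR adjusted p = 0.0425). The call was not firm: it was kept in 7 of 15 alternatives, with adjusted p over all of them from 0.0245 to 0.271. Leaving out any 1 library ended it (adjusted p = 0.0577 without control replicate 1, 0.143 without control replicate 2, 0.0973 without *CDYL*-sh replicate 1 and 0.271 without *CDYL*-sh replicate 2), as did DESeq2 (adjusted p = 0.159).

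*CPE* (ENSG00000109472, chromosome 4) encodes carboxypeptidase E, which removes basic residues from cut prohormones and helps to sort them into granules. It had 81.8 and 70.2 CPM in *CDYL*-sh cells and 71.3 and 74.5 CPM in control cells. Both control values lay between the *CDYL*-sh values, and the log2 fold change was 0.06 (SE 0.11, 95% interval -0.17 to 0.29, edgeR adjusted p = 0.72).

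Per length, *CPE* was the most abundant of the 9 genes in both groups, at 36.1 ± 4.74 FPKM in *CDYL*-sh cells and 34.5 ± 0.502 FPKM in control cells (SD, n = 2 each). In *CDYL*-sh cells it was followed by *CHGA* (17.6 FPKM), *UNC13B* (6.77), *UNC13A* (3.2), *UNC13D* (1.98), *SCG2* (0.995) and *SCG5* (0.17), all as mean FPKM. In control cells the mean FPKM followed another order, with *UNC13B* (6.01) next to *CPE*, then *CHGA* (2.75), *UNC13D* (1.48), *SCG2* (0.49), *UNC13A* (0.19) and *SCG5* (0.15). No 2 neighbors in either order overlapped in their library values. The closest were *UNC13A* (0.19 and 0.19 FPKM) and *SCG5* (0.17 and 0.13 FPKM) in control cells, where *SCG5* rests on 2 counts per library. *CHGB* and *CADPS* were listed at 0 and cannot be ordered. In control cells *CHGA* was thus below *UNC13B* per length, and in *CDYL*-sh cells it was above it.

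**Figure D2:**
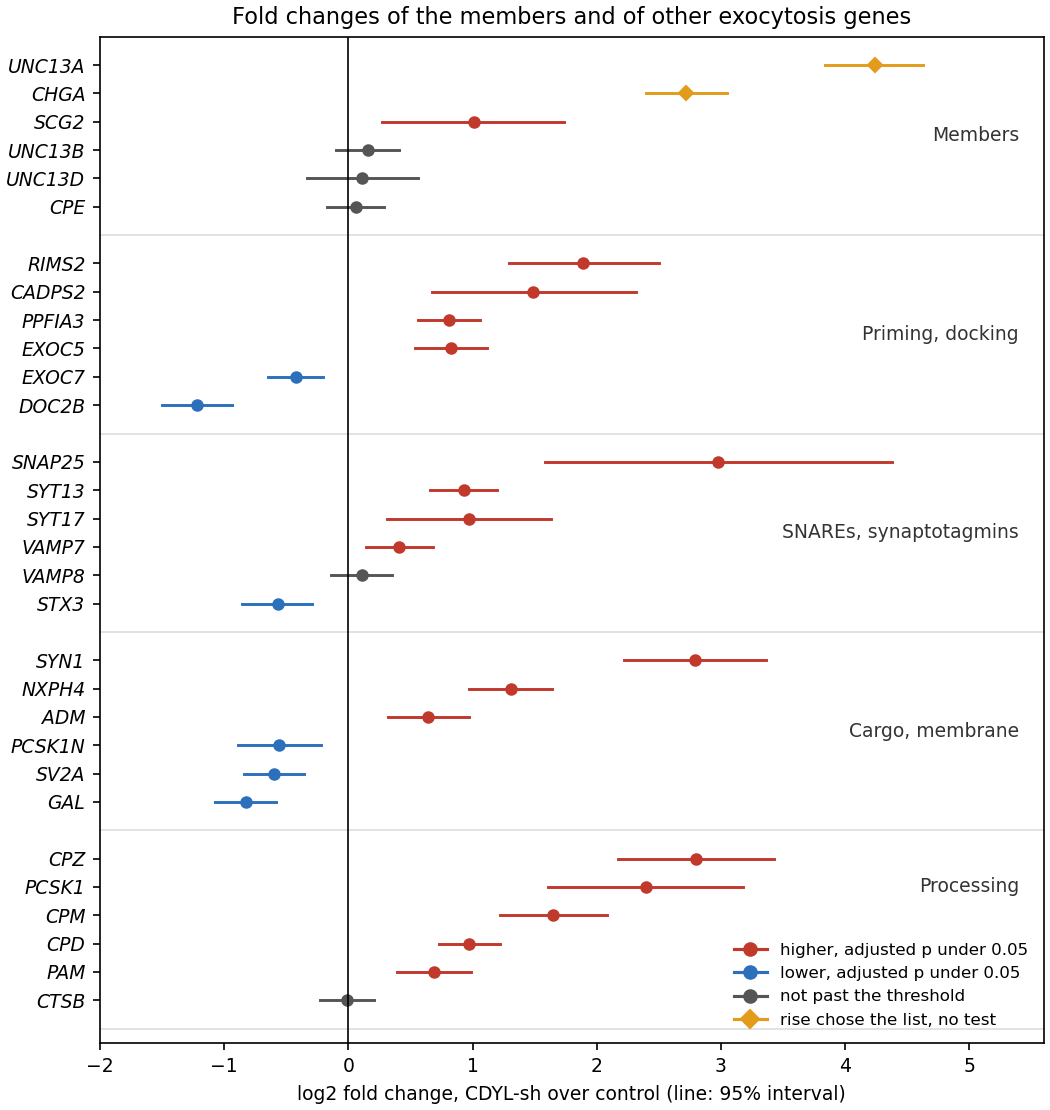
Log2 fold change (*CDYL*-sh over control) with its 95% interval for the 6 testable members and for genes of the other lists of the pathway, by role. Orange diamonds are *UNC13A* (4.24) and *CHGA* (2.72), which chose the list and carry no test, so their intervals are descriptive only. Red points rose, blue points fell and grey points did not pass the test at an adjusted p of 0.05, and *RIMS2* (1.89) and *DOC2B* (-1.22) mark the ends of the priming and docking genes drawn.

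The promoters of *UNC13A* and *CHGA* are shown because these genes carry the largest differences. Both come from RefSeq (GRCh38.p14), cover 250 bases before to 50 bases after the gene start and run 5′ to 3′ on the gene's own strand. Of the 9 genes, 6 were matched in that promoter set (*UNC13A*, *UNC13B*, *CHGA*, *SCG5*, *CPE* and *CADPS*), and *UNC13D*, *CHGB* and *SCG2* were not. Capitals in *UNC13A* (chr19:17688305-17688604, minus strand) mark both blocks of the REST element, which lie here on the opposite strand. Capitals in *CHGA* (chr14:92922900-92923199, plus strand) mark the cyclic AMP response element TGACGTCA, the site by which cyclic AMP signals act on many endocrine promoters.
UNC13A: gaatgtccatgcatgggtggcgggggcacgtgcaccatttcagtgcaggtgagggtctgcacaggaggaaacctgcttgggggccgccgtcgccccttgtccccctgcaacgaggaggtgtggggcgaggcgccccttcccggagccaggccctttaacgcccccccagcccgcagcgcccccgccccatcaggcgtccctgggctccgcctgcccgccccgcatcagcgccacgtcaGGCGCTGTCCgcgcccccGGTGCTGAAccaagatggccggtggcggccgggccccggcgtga
CHGA: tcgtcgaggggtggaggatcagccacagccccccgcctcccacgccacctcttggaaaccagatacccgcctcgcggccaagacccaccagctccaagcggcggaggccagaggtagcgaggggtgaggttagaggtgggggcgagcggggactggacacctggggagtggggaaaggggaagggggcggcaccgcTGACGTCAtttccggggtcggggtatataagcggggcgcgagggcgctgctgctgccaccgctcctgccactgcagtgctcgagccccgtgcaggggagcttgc
Both windows are rich in G and C (73% in *UNC13A* and 69.3% in *CHGA*). *UNC13A* held 28 CpG dinucleotides and *CHGA* 24, against a median of 14 over the 27305 promoters in the set, of which 74.1% had fewer than *UNC13A* and 66.3% fewer than *CHGA*. A dense CpG promoter was not peculiar to these genes, since *UNC13B* held 26 and *CPE* 24. The cyclic AMP element, searched on both strands, was found in 1 of the 6 promoters (*CHGA*) and in 1.98% of all promoters. The GC box GGGCGG was found in 4 of the 6 and in 44.6% of all promoters, and it overlapped none of the capital letters. These matches are descriptions of sequence only.

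The REST element was then searched on both strands within 5 kb of the start of 19670 protein-coding genes, as TTCAGCACCNNGGACAGCGCC, which has 19 fixed letters of 21. *CHGA* matched all 19 fixed letters, as did 10 genes in all (0.0508%), and *CHGB* matched 18. The match in *CHGA* lay in an intron, centered 383 bases after the gene start, and that in *CHGB* lay in an intron 204 bases after the start. The best match of *CADPS* had 16 letters and lay upstream, at position -884 from the start. The others were at 12 to 14, the range where most genes fall. For *CPE* the annotated gene start used here (165361194) lies more than 5 kb from its RefSeq promoter (chr4:165378758-165379057). The surroundings of that promoter were thus not searched for the whole element. A second form with 8 letters between the blocks, TTCAGCACCNNNNNNNNGGACAGCGCC, was searched only after the letters of the *UNC13A* promoter had been seen. *UNC13A* matched all 19 fixed letters of that form, as did 4 genes in all (0.0203%: *CPLX1*, *TPH2*, *UNC13A* and *VSTM2L*). That match crosses the annotated start, at the edge of the first exon with its UTR. The matched genome sequences (GRCh38) are shown 5′ to 3′ on the strand of the element, with capitals for letters that fit it, because they are the closest matches among the 9 genes: *CHGA* at chr14:92923523-92923543 (plus strand), *CHGB* at chr20:5911704-5911724 (plus strand), *CADPS* at chr3:62876290-62876310 (minus strand) and *UNC13A* at chr19:17688340-17688366 (plus strand, against the gene).
CHGA: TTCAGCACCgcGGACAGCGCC
CHGB: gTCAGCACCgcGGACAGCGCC
CADPS: TTCAGCACgttGGcCAGCtCC
UNC13A: TTCAGCACCgggggcgcGGACAGCGCC
The levels of the genes that carry these elements are set side by side here. *CHGA* and *CHGB* held nearly the same element at nearly the same place, and *CHGA* was higher in *CDYL*-sh cells while *CHGB* had 0 counts in all libraries, where no difference can be seen. *CPLX1*, a complexin that clamps the SNARE complex, held the same full element as *UNC13A* and had 24.3 and 24.4 CPM in *CDYL*-sh cells, against 21.9 and 23.4 CPM in control cells (log2 fold change 0.10, SE 0.13, edgeR adjusted p = 0.593). Over all genes, 149 (0.757%) had at least 17 letters of the first form and 68 of these were tested. Where gene starts lie close, 1 match can count for more than 1 gene, as for *INA*, which rose, and *NT5C2*, which did not pass the test. Of the 68, 19 rose (27.9%) and 4 fell (5.88%), beside 15.2% and 13.1% of all protein-coding genes tested. The number that rose includes *CHGA*, whose rise chose the list, here and at the other minimums. With a minimum of 16 letters it was 43 higher and 13 lower of 171, and with 18 letters 7 higher and 2 lower of 21. In the second form 25 genes had at least 17 letters, and of 13 tested, 6 rose and 0 fell by edgeR, with 0 lower at an unadjusted p under 0.05. *UNC13A* is among the 6 by construction, since its letters gave the form and its rise chose the list. Nothing is read from that count. A match is not a binding site, REST binding was not measured here, and the part of the element in these differences was not tested.

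**Figure D3:**
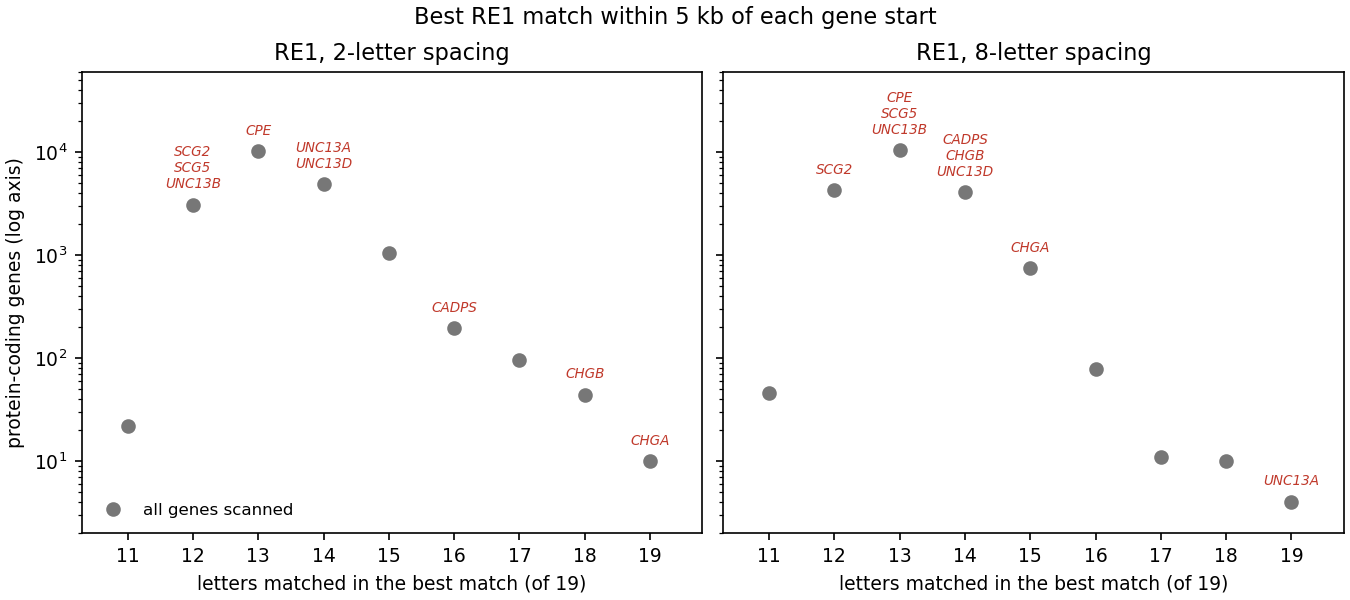
Number of protein-coding genes (log axis) by the letters matched, of 19, in their best REST element within 5 kb of the gene start, for 2 letters between the blocks (left) and 8 letters (right). Grey points count all genes scanned and red names place the 9 genes. *CHGA* stands among 10 genes with all 19 letters on the left and *UNC13A* among 4 on the right, while the other members lie at 12 to 18. The start used for *CPE* lies more than 5 kb from its RefSeq promoter, which was not covered.

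Textbook targets of REST outside the list were read next. They were listed with earlier results of these data known, and they share genes with other lists, *SNAP25* and *SYN1* among them. Of 35 genes, 16 were tested, 8 rose and 0 fell, with a median log2 fold change of 0.81, beside 13.6% higher and 12.1% lower over all genes tested. None fell at an unadjusted p under 0.05, and DESeq2 called 7 higher and 0 lower. *NEFH*, the heavy neurofilament, had 35.1 and 33.5 CPM in *CDYL*-sh cells and 11.8 and 10.1 CPM in control cells. *SYN1*, the synapsin that tethers synaptic vesicles, had 7.18 and 8.38 CPM in *CDYL*-sh cells and 1.36 and 0.867 CPM in control cells. *RUNDC3A* (log2 fold change 2.79, SE 0.32), *CHRM4*, a muscarinic receptor (1.55, SE 0.18), and *INA*, the internexin filament (0.55, SE 0.12), rose too. The groups did not overlap for any of these 5 genes. That adds no support, since all 5 had passed the test on the same libraries. *NEFH*, *SYN1*, *CHRM4*, *INA* and *GAD1* are also among the genes with at least 17 letters of the first form that rose. The count here and the count of matches above thus share genes. Leaving out each library in turn gave 7 to 9 genes higher and 0 to 1 lower. *REST* itself, named after its values were seen, rose slightly, with 25.5 and 25 CPM in *CDYL*-sh cells and 20.8 and 16.3 CPM in control cells (log2 fold change 0.44, SE 0.14, edgeR adjusted p = 0.0283). In the list of REST and its corepressors, 16 of 17 genes were tested, 2 rose and 4 fell. The chromatin remodeler *SMARCA4* fell by 0.60 on the log2 scale (SE 0.11), as did the histone methyltransferase *EHMT1* (-0.34, SE 0.10), while its partner *ZNF644* rose (0.69, SE 0.15). Leaving out each library in turn gave 1 to 3 of these genes higher and 1 to 3 lower, with 1 lower without *CDYL*-sh replicate 2 and 1 lower without control replicate 1.

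The list of transcription factors of neuroendocrine fate holds both drivers and repressors. Of its 26 genes 12 had 0 counts in all libraries, *INSM1*, *NEUROD1* and *NKX2-2* among them. The test covered 8, of which 1 rose and 3 fell, beside 13.6% higher and 12.1% lower over all genes tested. *SOX4*, a factor of early neural and endocrine progenitors, fell to 19.4 and 16.7 CPM in *CDYL*-sh cells, against 46.9 and 44.6 CPM in control cells (log2 fold change -1.34, SE 0.13). *ISL1*, a factor of pancreatic islets, and *GFI1* fell by 0.64 and 0.45 on the log2 scale, and *HES6* rose by 0.35. The most abundant, *HES1*, a repressor of that fate, had 105 and 112 CPM in *CDYL*-sh cells and 107 and 115 CPM in control cells. Leaving out each library in turn gave 0 to 1 of these genes higher and 1 to 3 lower. The higher call, *HES6*, was absent without either *CDYL*-sh library or without control replicate 1, and 1 gene was lower without *CDYL*-sh replicate 2.

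The next list holds genes that work beside UNC13 and CADPS. In these other priming and docking factors, 36 of 44 genes were tested, 15 rose and 2 fell, with a median log2 fold change of 0.38, beside 13.6% higher, 12.1% lower and a median of 0.01 over all genes tested. *RIMS2*, an active zone scaffold that binds UNC13, had 5.43 and 4.4 CPM in *CDYL*-sh cells and 1.54 and 1.09 CPM in control cells (log2 fold change 1.89, SE 0.29). *PPFIA3*, a liprin of the active zone, rose by 0.81 (SE 0.12) and *EXOC5*, a subunit of the exocyst tether, by 0.83 (SE 0.14) on the log2 scale. *DOC2B*, a calcium sensor that binds UNC13, fell to 14.2 and 13.8 CPM in *CDYL*-sh cells, against 30.7 and 34.6 CPM in control cells. The exocyst subunit *EXOC7* also fell (log2 fold change -0.42, SE 0.11). Fewer of these genes rose when any 1 library was left out, fewest without *CDYL*-sh replicate 2. Over all genes tested, too, fewest passed without that library. The number that fell also changed.

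Among the SNARE genes, which form the fusion machine that priming prepares, 27 of 31 were tested, 2 rose and 5 fell (median log2 fold change -0.05). Over all genes tested it was 13.6% higher and 12.1% lower. *VAMP8*, the most abundant at 240 and 282 FPKM in *CDYL*-sh cells and 226 and 257 FPKM in control cells, did not pass the test. *STX3*, a plasma membrane syntaxin of epithelia, fell by 0.57 on the log2 scale (SE 0.14), *STX2* by 0.54 (SE 0.17) and *VAMP1* by 0.52 (SE 0.17), and the lysosomal *VAMP7* rose by 0.41 (SE 0.13). *SNAP25*, the SNARE of neurons and endocrine cells, is named after its values were seen. It had 31 and 15 counts in *CDYL*-sh cells and 3 and 3 counts in control cells (log2 fold change 2.98, SE 0.67, edgeR adjusted p = 0.00312), at under 1 FPKM. *CPLX3*, a complexin at a like level and also named after its values were seen, fell by 3.20 (SE 0.80, edgeR adjusted p = 0.00676), with 2.41 and 1 counts in *CDYL*-sh cells and 16.33 and 15.52 counts in control cells. SNARE calls were sensitive to single libraries: 0 rose and 1 fell without *CDYL*-sh replicate 1, and 1 rose and 0 fell without *CDYL*-sh replicate 2. It was 3 and 3 without control replicate 1, 1 and 4 without control replicate 2, and 1 and 2 with DESeq2.

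Some synaptotagmins, not all, sense calcium at release, and 7 of the 17 listed were tested. Of these 7, 3 rose and 0 fell, with a median log2 fold change of 0.93. All genes tested gave 13.6% higher and 12.1% lower. By edgeR 1 was lower at an unadjusted p under 0.05, and DESeq2 called 0 lower. *SYT13*, the most abundant per length, had 29.7 and 30.6 CPM in *CDYL*-sh cells and 16 and 15.6 CPM in control cells (log2 fold change 0.93, SE 0.13). *SYT17* had 2.68 and 3.72 CPM in *CDYL*-sh cells and 1.33 and 1.92 CPM in control cells (log2 fold change 0.97, SE 0.32, edgeR adjusted p = 0.0306). The number that rose was 1 without *CDYL*-sh replicate 2 or without control replicate 1, 2 without *CDYL*-sh replicate 1, and 1 by DESeq2.

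Other cargo is the company of *CHGA* in the granule. Of 40 cargo and peptide genes, 16 had 0 counts in all libraries and 12 were tested, of which 2 rose and 2 fell (median log2 fold change 0.09), which is near the 13.6% higher and 12.1% lower over all genes tested. *NXPH4*, a secreted neurexophilin, had 25.2 and 34 CPM in *CDYL*-sh cells and 11 and 12.9 CPM in control cells, and *ADM*, adrenomedullin, rose by 0.64 on the log2 scale (SE 0.15). *GAL*, the neuropeptide galanin and the most abundant cargo gene per length, fell to 70.2 and 71.5 FPKM in *CDYL*-sh cells, against 134 and 115 FPKM in control cells (log2 fold change -0.82, SE 0.12). *PCSK1N*, the granin-like inhibitor of PCSK1, fell by 0.56 (SE 0.16). The granins *SCG3*, with 3 and 3 counts in *CDYL*-sh cells and 4 and 2 counts in control cells, and *VGF*, with 18 and 11 counts in *CDYL*-sh cells and 8 and 4 counts in control cells (edgeR adjusted p = 0.125), were near the floor. They are named after their values were seen. The number that fell was 1 without *CDYL*-sh replicate 2, and 3 rose without control replicate 2.

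Among the enzymes that cut and finish prohormones, where *CPE* works, 17 of 20 were tested, 7 rose and 3 fell (median log2 fold change 0.09). The shares over all genes tested were 13.6% higher and 12.1% lower. Of the carboxypeptidases related to *CPE*, *CPD*, *CPM* and *CPZ* rose, *CPXM1*, named after its values were seen, did not pass the test (log2 fold change -0.17, SE 0.19, edgeR adjusted p = 0.565), and *CPXM2* had 0 counts in all libraries. *CPD*, the carboxypeptidase of the trans-Golgi, had 125 and 128 CPM in *CDYL*-sh cells and 71.5 and 57 CPM in control cells (log2 fold change 0.97, SE 0.12). *CPM*, a membrane-bound form, had 10.1 and 9.11 CPM in *CDYL*-sh cells and 3.12 and 3.01 CPM in control cells, and the secreted *CPZ* had 5.28 and 5.53 CPM in *CDYL*-sh cells and 0.646 and 0.904 CPM in control cells (log2 fold changes 1.65, SE 0.20, and 2.80, SE 0.30). *PCSK1*, the convertase of many prohormones, named after its values were seen, had 95 and 72 counts in *CDYL*-sh cells and 12 and 22 counts in control cells (log2 fold change 2.40, SE 0.37, edgeR adjusted p = 0.000171). The lysosomal protease *CTSB*, the most abundant of the list, was level at 237 and 232 FPKM in *CDYL*-sh cells and 232 and 246 FPKM in control cells. Without *CDYL*-sh replicate 2 the number that fell was 0, without control replicate 1 it was 1, and without the other libraries it was 2.

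In the genes of granule membranes and granule formation, 30 of 38 were tested, 5 rose and 3 fell (median log2 fold change 0.10). That is near the 13.6% higher and 12.1% lower over all genes tested. *SYN1* is given above. *CCDC186*, a sorting factor of dense-core granules known from worms and rat cells, had 21.4 and 23.8 CPM in *CDYL*-sh cells and 13.3 and 8.78 CPM in control cells (log2 fold change 1.03, SE 0.17), and the adaptor subunit *AP3B1* rose by 0.74 (SE 0.15). *SV2A*, a vesicle membrane glycoprotein, fell to 37.8 and 35.9 CPM in *CDYL*-sh cells, against 58.3 and 53.3 CPM in control cells. *VPS51*, the most abundant per length, did not pass the test. The counts were 3 higher and 1 lower without *CDYL*-sh replicate 2, 4 and 1 without *CDYL*-sh replicate 1, and 5 and 1 without control replicate 1. Offsets for GC content and gene length gave 8 higher and 7 lower.

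**Figure D4:**
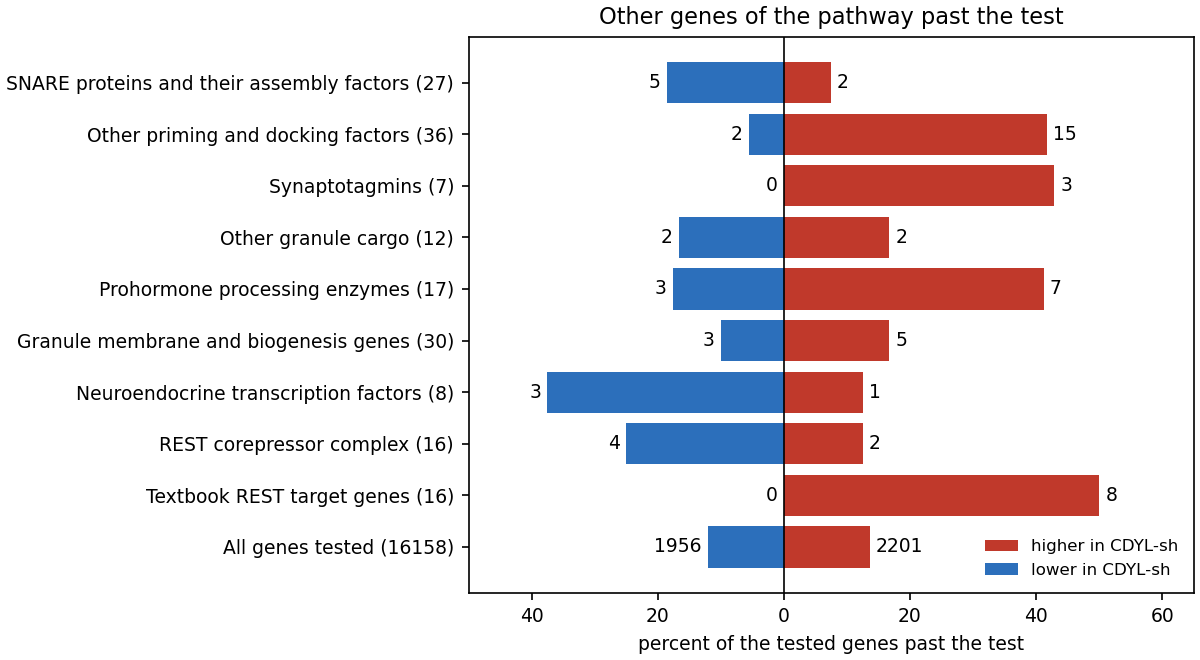
Share of the tested genes of each list that passed the test, in percent, with lower genes to the left in blue and higher genes to the right in red. Numbers beside the bars count the genes, numbers in brackets the genes tested, and the lowest bar gives all 16158 genes tested. The priming and docking factors (15 higher, 2 lower) and the textbook REST targets (8 higher, 0 lower) had more higher than lower genes. The SNARE genes (2 higher, 5 lower) and neuroendocrine transcription factors (1 higher, 3 lower) had more lower than higher genes. Counts changed when single libraries were left out, as they did over all genes tested, and the SNARE genes did not keep their direction.

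Over these 9 other lists of the pathway, 163 of 259 genes were tested, 43 rose and 22 fell, beside 13.6% higher and 12.1% lower over all genes tested. Without *CDYL*-sh replicate 2, the shallowest library, it was 26 and 5, and without control replicate 1 it was 40 and 13.

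The surroundings of *UNC13A* and *CHGA* on the chromosome were checked through the nearest 2 protein-coding genes on each side. Around *UNC13A*, *NIBAN3*, *COLGALT1*, *MAP1S* and *FCHO1* had log2 fold changes of -0.28 (SE 0.50), -0.00 (SE 0.10), 0.13 (SE 0.11) and 0.11 (SE 0.14), and none passed edgeR's test, with 0 of the 4 at an unadjusted p under 0.05. *COLGALT1*, 18.2 kb away, was deeply covered at 370 and 375 CPM in *CDYL*-sh cells and 357 and 389 CPM in control cells. Around *CHGA*, *ITPK1*, only 1.63 kb away, had 326 and 341 CPM in *CDYL*-sh cells and 363 and 378 CPM in control cells (log2 fold change -0.15, SE 0.10, edgeR adjusted p = 0.309). *LGMN* (-0.08, SE 0.11) and *MOAP1* (-0.28, SE 0.13) did not pass the test either. *GOLGA5*, a golgin 83.2 kb away, rose to 58.9 and 65.6 CPM in *CDYL*-sh cells, against 32.6 and 23 CPM in control cells (log2 fold change 1.16, SE 0.14, edgeR adjusted p = 2e-05). Of these 4 neighbors of *CHGA*, 2 had an unadjusted p under 0.05 by edgeR.

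The genes most like each of them were found by Euclidean distance over the 4 libraries in log2 CPM centered on the gene's mean, over the 14000 genes averaging 1 CPM or more. Nearest to *UNC13A* were *TM4SF18-AS1* (distance 0.71), the potassium channel gene *KCNH4* (0.78) and *TMEM151A* (0.87). *KCNH4* had 81 and 81 counts in *CDYL*-sh cells, against 8 and 3 counts in control cells. *TM4SF18-AS1* is an antisense gene, and reads of the partner gene cannot be told apart from it where counting ignores strand. Nearest to *CHGA* was *PAEP* (distance 0.12), which encodes glycodelin, the main secreted protein of the receptive endometrium. *PAEP* had 7.53 and 6.8 CPM in *CDYL*-sh cells, against 0.898 and 1.06 CPM in control cells. It was followed by *CASP14* (0.14) and *KRT16P6* (0.19), a keratin pseudogene whose counts are uncertain because it shares sequence with *KRT16*. With 4 libraries in 2 groups, such a distance mainly reflects a similar difference between the groups.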

How the data were processed

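The authors aligned paired-end TruSeq reads to GRCh38.p10 with TopHat, and their processing notes also name RSEM and edgeR without versions. The deposited table holds an expected count and an FPKM per gene and library, the FPKM normalized by the authors for length and depth. No annotation release is given in the sources used here. Of 58522 identifiers, 98.1% had a symbol, and all 307 list genes were found. Expected counts were rounded, filtered with filterByExpr, scaled by TMM and tested with edgeR 4.0.16 (R 4.3.3, limma 3.58.1) glmQLFit and glmQLFTest, with no covariate and Benjamini-Hochberg adjustment over 16158 genes at 0.05. Fold changes used a prior count of 0.125. CPM use TMM library sizes. Positions come from GENCODE 44. Intervals are nominal 95% intervals. Those of *UNC13A* and *CHGA*, whose rise chose the list, are descriptive, and those of counts of 0 cover counting error only.

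Named genes were the 9 members, *CDYL*, up to 4 genes per list past the test with a mean of at least 1 CPM, by lowest adjusted p, the gene of highest FPKM per list, 2 neighbors per side, and 3 most similar genes each for *UNC13A* and *CHGA*. Some genes that this rule names are not reported here. Members and lists were chosen with earlier results of these data known. Alternatives were RLE or no scaling, no filter, unrounded counts, DESeq2 1.42.0, limma-voom, limma on log2 FPKM (pseudocounts 1 and 0.1, mean FPKM of at least 0.5 or no filter), a replicate block, GC and length offsets (mgcv 1.9.3), and leaving out each library. Searches with 16 or 18 letters and with 8-letter spacing were added after the data were seen.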

Additional observations from a re-analysis of the deposited data

How the results depend on the processing

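*UNC13B*, *UNC13D* and *CPE* passed the test in 0 of 15 alternatives. As a description, the log2 fold change of *UNC13A* ranged over 1.81 to 4.39 and that of *CHGA* over 2.32 to 2.82, with the 1.81 on log2(FPKM + 1), a scale that compresses low values. The 4157 genes past the test became 461 with limma on log2(FPKM + 1), 507 on log2(FPKM + 0.1) and 0 without a filter, where 4572 genes had an unadjusted p under 0.05. On these 3 scales the other lists of the pathway had 9, 10 and 0 genes higher, against 43 in edgeR, and 2, 2 and 0 lower, against 22. Leaving out 1 library leaves 1 in its group, so the counts from such fits are descriptive. They were 2082 to 4006 genes past the test, with 26 to 40 higher and 5 to 20 lower in the other lists. The lowest values came without *CDYL*-sh replicate 2, and the cause was not tested. DESeq2 called 3344 genes and limma-voom 4221. Deviations of same-numbered libraries correlated at 0.03 over 16158 genes. With 2 libraries per group this cannot settle whether replicate numbers pair the samples. With the replicate number as a block, 5393 genes passed, with 51 higher and 30 lower in the other lists. GC and length offsets gave 5270 genes, 46 higher and 26 lower, and left *SCG2* at an adjusted p of 0.0481. Depth limits *CHGB*, *CADPS* and *SCG5*, for which a difference was not detectable.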
